A study of Homo sapiens with 6 samples.

Results

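TXNIP, ARRDC3 and ARRDC4 are the alpha-arrestin genes held in expression tables of ES2 cells, a human epithelial ovarian cancer cell line. They were picked by gene symbol, with earlier results of these data known, and are 3 of the 771 entries with a symbol, in tables of 1113 entries. The study asked how knockdown of RUNX1-IT1, a long non-coding RNA whose gene sits inside RUNX1, changes gene expression. It sequenced 3 libraries from ES2 cells under an antisense oligonucleotide (ASO) against RUNX1-IT1 and 3 from ES2 cells under a control ASO. An ASO is a short synthetic strand that pairs with an RNA, often to have it degraded. Both groups are the same unmodified line, grown in RPMI-1640 with fetal bovine serum, and the labels name neither the ASO dose nor the time of harvest. Nothing in the labels says that the replicates were separate cultures, so the p-values measure only the spread between these libraries, which may be technical.

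Alpha-arrestins are membrane-associated adaptor proteins that carry a pair of arrestin folds and, in their tails, short proline-rich motifs that bind ubiquitin ligases of the NEDD4 family. Through these ligases they direct receptors and transporters from the cell surface into endosomes. TXNIP also binds reduced thioredoxin, and TXNIP and ARRDC4 lower glucose uptake. Both genes are textbook targets of the glucose-sensing transcription factor MondoA with its partner MLX, which bind carbohydrate response elements, paired E-box-like half-sites. ARRDC3 is best known for the ubiquitination of a beta-adrenergic receptor and of the integrin ITGB4.

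The start regions of the 3 genes are shown because TXNIP and ARRDC4 are known MondoA targets, so that their start regions can be set beside that of ARRDC3. RefSeq start windows, 250 bases before to 50 bases after a transcription start on GRCh38.p14, were held for all 3 genes, 5 windows in all. The stretches below are the parts upstream of both the RefSeq and the GENCODE start, 5′ to 3′ on the gene's strand. Capitals mark matches to the searched letters on either strand, and lower case is the rest. TXNIP is from chr1:145996601-145996829 (minus strand), ARRDC3 from chr5:91383360-91383567 (minus strand) and ARRDC4 from chr15:97960453-97960697 (plus strand).
TXNIP: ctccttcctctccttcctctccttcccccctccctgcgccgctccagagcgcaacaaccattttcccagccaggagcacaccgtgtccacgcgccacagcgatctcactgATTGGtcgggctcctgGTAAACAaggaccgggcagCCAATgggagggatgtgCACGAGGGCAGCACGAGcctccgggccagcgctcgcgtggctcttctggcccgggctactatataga
ARRDC3: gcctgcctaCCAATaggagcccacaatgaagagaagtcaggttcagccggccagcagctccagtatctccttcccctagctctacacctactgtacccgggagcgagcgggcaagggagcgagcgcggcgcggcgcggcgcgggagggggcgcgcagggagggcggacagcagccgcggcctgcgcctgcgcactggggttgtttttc
ARRDC4: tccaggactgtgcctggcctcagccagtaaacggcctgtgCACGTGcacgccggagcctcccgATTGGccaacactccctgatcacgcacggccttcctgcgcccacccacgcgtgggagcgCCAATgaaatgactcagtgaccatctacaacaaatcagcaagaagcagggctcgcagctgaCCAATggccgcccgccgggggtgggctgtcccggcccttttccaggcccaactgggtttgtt

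The TXNIP stretch held 1 match to the carbohydrate response element letters, 2 copies of CACGNG with 5 bases between them, as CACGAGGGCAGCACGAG at positions -88 to -72, where -1 is the base before the RefSeq start. These letters were present in 20 of 34796 distinct RefSeq start windows of the same length, or 0.0575%. TXNIP also held CCAAT at -105 to -101, its reverse complement at -140 to -136, and the forkhead core GTAAACA at -124 to -118. The ARRDC4 window held the E-box CACGTG, whose letters match 1 half-site of the longer element, at -210 to -205. It held CCAAT or its reverse complement at 3 places (-187 to -183, -128 to -124 and -67 to -63). Single CACGNG half-sites were not searched. The printed TXNIP and ARRDC4 stretches also hold CACGCG, which has these letters and is not marked. The ARRDC3 window held CCAAT at -241 to -237 and none of the other letters searched. A second ARRDC3 window, at an internal start, held the reverse complement of GTAAACA at -29 to -23, and a second TXNIP window held no match. Of all windows, 7.20% held CACGTG, 34.6% held CCAAT and 3.42% held GTAAACA on either strand. The glucocorticoid response element, searched as AGAACA and TGTTCT with 3 bases between them, matched none of these windows, and 0.00287% of all windows. The motifs were picked with the genes and their sequences in view, and a match is a description of letters in a window. A missing match does not show that a gene lacks the element, since only these letters in these windows were searched.

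**Figure D1:**
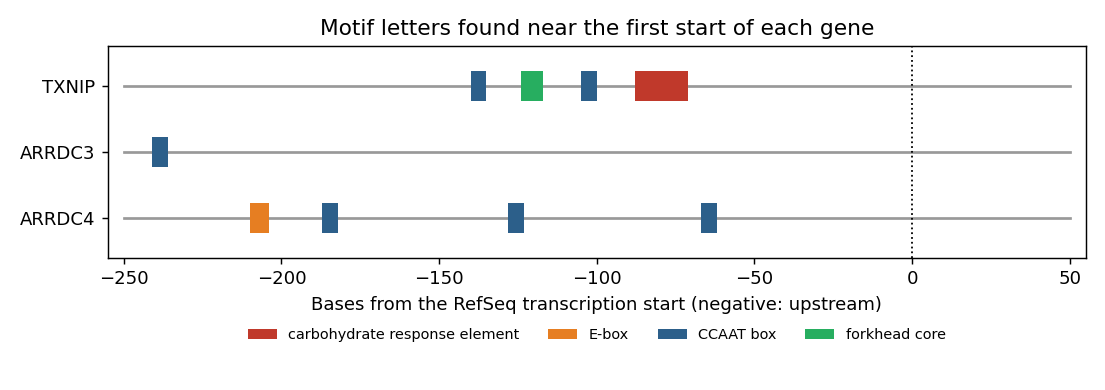
Positions of the matched motif letters in the first RefSeq start window of TXNIP, ARRDC3 and ARRDC4, in bases from the transcription start (dotted line). Blocks are coloured by motif, and the carbohydrate response element match at -88 to -72 appears in the TXNIP window and in neither of the others. Only the searched letters within these windows could be found.

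Only a small share of each library is in the tables. The entries summed to 0.363 to 0.389% of the CPM scale (read counts scaled to library size) in RUNX1-IT1 ASO libraries and 1.02 to 1.11% in control ASO libraries. Group means were lower under the RUNX1-IT1 ASO for 1081 entries and higher for 32, and 1 entry differed by less than 2-fold between the group means. The entries therefore appear to have been chosen for a difference between these same libraries, and the adjusted p of a single gene is no independent evidence of a change. RUNX1-IT1 and RUNX1 are not among the listed symbols, so the knockdown itself is not analysed here. Of 13 ovarian tumour and epithelial markers PAX8 and ESR1 are listed, and of 9 immune markers ITGAM is. None of the 8 fibroblast and 5 endothelial markers searched is listed. The evenly spaced low values put library totals at 17100000 to 18700000 reads in the RUNX1-IT1 ASO group and 17300000 to 21200000 reads in the control ASO group.

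All 3 alpha-arrestins were called lower under the RUNX1-IT1 ASO, with TXNIP at 43.3%, ARRDC3 at 42.5% and ARRDC4 at 30.2% of their control ASO means, although TXNIP and ARRDC3 changed sign once each library was rescaled to the same listed total. That total was itself lower under the RUNX1-IT1 ASO, so the changed sign means a smaller fall than that of the total. After rescaling only TXNIP of the 3 was called. The test took in 489 named genes averaging 1 CPM or more over the libraries, of which 97.5% were called lower and 2.04% higher by the same fit. A count of 3 of 3 members is therefore near the background and is no result about the family. In whole-culture RNA, fewer cells with a transcript and less of it per cell cannot be told apart.

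TXNIP, the thioredoxin-interacting member, was the most abundant of the 3. It had 62.7, 66.4 and 66.1 CPM in replicates 1, 2 and 3 of the RUNX1-IT1 ASO group, against 149, 154 and 147 CPM in control ASO replicates 1, 2 and 3. The groups did not overlap, and the highest RUNX1-IT1 ASO library lay 2.22-fold below the lowest control ASO library. The mean was 65.0 ± 2.05 CPM under the RUNX1-IT1 ASO and 150 ± 3.17 CPM under the control ASO (SD, n = 3 each), 2.31-fold lower. On the log2(CPM + 1) scale TXNIP fell by 1.19 ± 0.07 (SE, limma, adjusted p = 5.55e-09). In GENCODE release 29 the gene lies on chromosome 1 from 145992435 to 145996600 on the minus strand (GRCh38), and overlaps no other annotated gene.

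ARRDC3, the member tied to receptor and integrin ubiquitination, had 29.9, 23.9 and 25.7 CPM in replicates 1, 2 and 3 of the RUNX1-IT1 ASO group, against 62.0, 64.3 and 60.8 CPM in control ASO replicates 1, 2 and 3. RUNX1-IT1 ASO replicate 1 stood above the other RUNX1-IT1 ASO libraries but 2.03-fold below the lowest control ASO library. Its mean was 26.5 ± 3.11 CPM under the RUNX1-IT1 ASO and 62.4 ± 1.80 CPM under the control ASO (SD, n = 3 each), 2.35-fold lower. The change on the log2(CPM + 1) scale was -1.21 ± 0.09 (SE, limma, adjusted p = 5.84e-08). ARRDC3 lies on chromosome 5 from 91368724 to 91383359 on the minus strand. Over 3011 bases it overlaps ARRDC3-AS1, a non-coding gene on the plus strand from 91380349 to 91439085 that is not among the listed symbols. Whether the counting used strand is not given in the sources used here, so reads of the overlap cannot be assigned with certainty.

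ARRDC4, the second glucose-responsive member, was the least abundant and had the largest fall of the 3. It had 6.90, 8.07 and 6.62 CPM in replicates 1, 2 and 3 of the RUNX1-IT1 ASO group, against 23.9, 23.3 and 24.1 CPM in control ASO replicates 1, 2 and 3. The control ASO libraries were within 1 CPM of each other, and every one lay at least 2.89-fold above every RUNX1-IT1 ASO library. The mean was 7.19 ± 0.767 CPM under the RUNX1-IT1 ASO and 23.8 ± 0.410 CPM under the control ASO (SD, n = 3 each), 3.31-fold lower. On the log2(CPM + 1) scale ARRDC4 fell by 1.60 ± 0.10 (SE, limma, adjusted p = 9.33e-09). The gene lies on chromosome 15 from 97960698 to 97973838 on the plus strand and overlaps no other annotated gene.

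**Figure D2:**
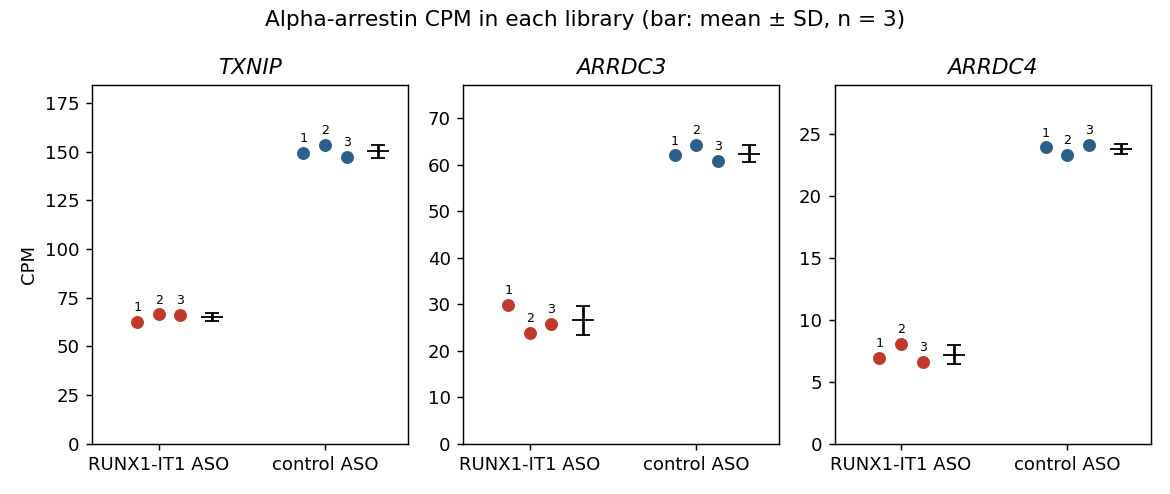
CPM of TXNIP, ARRDC3 and ARRDC4 in each library, with RUNX1-IT1 ASO libraries in red and control ASO libraries in blue, replicate numbers above the points, and bars for the mean ± SD (n = 3 each). All RUNX1-IT1 ASO points lie below all control ASO points for each gene in deposited CPM, although after rescaling each library to the same listed total TXNIP and ARRDC3 changed sign. The listed total was itself lower under the RUNX1-IT1 ASO, and after rescaling only TXNIP of these genes was called.

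For all 3 genes the RUNX1-IT1 ASO libraries lay below the control ASO libraries without overlap, as they did for 97.1% of the tested genes. The depth behind the values differed between members. Read numbers implied by the step size were 1128 to 1234 for TXNIP, 439 to 560 for ARRDC3 and 113 to 150 for ARRDC4 in RUNX1-IT1 ASO libraries. In control ASO libraries they were 2651 to 3126 for TXNIP, 1111 to 1290 for ARRDC3 and 403 to 512 for ARRDC4. Counting alone would give relative SDs averaging 2.92% for TXNIP, 4.58% for ARRDC3 and 8.79% for ARRDC4 in RUNX1-IT1 ASO libraries. The observed SDs there were 3.15% of the mean for TXNIP, 11.7% for ARRDC3 and 10.7% for ARRDC4. Of the 3, only ARRDC3 had an observed SD more than 2 times its counting SD there. In control ASO libraries the observed SDs were 2.11% for TXNIP, 2.88% for ARRDC3 and 1.72% for ARRDC4, beside counting SDs averaging 1.85%, 2.87% and 4.66%. These counting SDs cover counting error only. In control ASO libraries they rest on implied reads that are less certain, since whole reads could not be taken as recovered there.

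Among control ASO libraries TXNIP and ARRDC3 were both highest in replicate 2 and lowest in replicate 3, and the SD of their log2 CPM ratio was 0.011. Their spreads there were close to their counting SDs (2.11% beside 1.85% for TXNIP, 2.88% beside 2.87% for ARRDC3). No shared order is therefore read from these libraries. ARRDC4 had its lowest control ASO value in replicate 2, but its spread in that group was below its counting SD, so no order is read for it either. Among RUNX1-IT1 ASO libraries replicate 1 was the lowest for TXNIP and the highest for ARRDC3, and replicate 2 was the highest for TXNIP and ARRDC4 and the lowest for ARRDC3. The spreads of TXNIP (3.15% beside 2.92%) and ARRDC4 (10.7% beside 8.79%) there were close to their counting SDs, so no order is read for these genes.

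Levels were compared between members per kilobase of the longest protein-coding GENCODE transcript, which is 2926 bases for TXNIP, 4188 for ARRDC3 and 4072 for ARRDC4. On this scale TXNIP stood at 22.2 ± 0.700 CPM per kilobase, ARRDC3 at 6.33 ± 0.744 and ARRDC4 at 1.77 ± 0.188 under the RUNX1-IT1 ASO (SD, n = 3 each). Under the control ASO TXNIP stood at 51.3 ± 1.08 CPM per kilobase, ARRDC3 at 14.9 ± 0.429 and ARRDC4 at 5.84 ± 0.101 (SD, n = 3 each). The order was the same in both groups, and neighbouring levels were apart by more than their spread. The level of TXNIP per kilobase was 3.51 times that of ARRDC3 under the RUNX1-IT1 ASO and 3.44 times under the control ASO. It was 12.6 times that of ARRDC4 under the RUNX1-IT1 ASO and 8.78 times under the control ASO.

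Whether the members fell by different amounts was asked with the log2 ratio of their CPM within each library, which no rescaling of a library can move. For ARRDC4 over TXNIP it was -3.18, -3.04 and -3.32 in RUNX1-IT1 ASO replicates 1, 2 and 3, against -2.64, -2.72 and -2.61 in control ASO replicates 1, 2 and 3. The difference was -0.52 ± 0.09 (SE; exact two-sided permutation p = 0.1, adjusted p = 0.15 over 3 pairs), with ARRDC4 lower relative to TXNIP in all RUNX1-IT1 ASO libraries. For ARRDC4 over ARRDC3 the log2 ratio was -2.12, -1.57 and -1.96 in RUNX1-IT1 ASO replicates 1, 2 and 3, against -1.38, -1.46 and -1.33 in control ASO replicates 1, 2 and 3. That difference was -0.49 ± 0.17 (SE; exact two-sided permutation p = 0.1, adjusted p = 0.15), and again the groups did not overlap. For ARRDC3 over TXNIP the difference was -0.03 ± 0.12 (SE; exact two-sided permutation p = 0.8, adjusted p = 0.8). Its RUNX1-IT1 ASO libraries, at -1.07, -1.47 and -1.36, lay on both sides of the control ASO libraries, at -1.27, -1.25 and -1.28, and the difference rested on single libraries. It was -0.15 without RUNX1-IT1 ASO replicate 1, where the groups no longer overlapped (exact two-sided permutation p = 0.1), 0.05 without RUNX1-IT1 ASO replicate 2 and -0.0039 without RUNX1-IT1 ASO replicate 3. With 3 libraries against 3 the smallest p such a test allows is 0.1, so no pair can pass a threshold of 0.05. The same ratios were not taken for other pairs of tested genes, so how common groups without overlap are among them is not known.

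**Figure D3:**
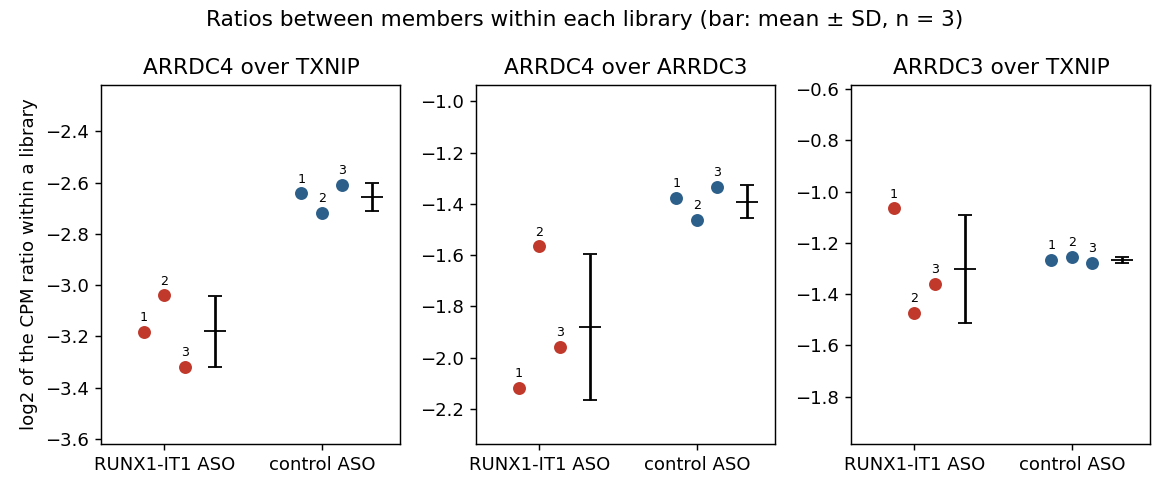
The log2 ratio of CPM between members within each library, with RUNX1-IT1 ASO libraries in red, control ASO libraries in blue, replicate numbers above the points and bars for the mean ± SD (n = 3 each). For ARRDC4 over TXNIP and ARRDC4 over ARRDC3 the groups do not overlap, and for ARRDC3 over TXNIP they do. Other pairs of tested genes were not compared in this way.

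Among the 489 tested genes the median change was -1.11 on the log2(CPM + 1) scale, with a 25th percentile of -1.43 and a 75th of -0.88. On this scale TXNIP ranked 205 and ARRDC3 ranked 196 by the size of the fall, near the middle of the tested genes. ARRDC4 ranked 84, with 17.0% of the tested genes falling more on the same scale. This scale understates the fall of low genes. Over the 140 tested genes with at least 10 CPM in control ASO libraries, where the scale matters less, the median change was -1.32, and the changes of TXNIP and ARRDC3 were smaller than it and that of ARRDC4 larger. As a fold between group means, the median fall was 2.97 over all tested genes and 2.62 over these 140. TXNIP (2.31-fold) and ARRDC3 (2.35-fold) fell less than both medians, and ARRDC4 (3.31-fold) fell more. The smallest fold in either direction over all listed entries was 1.99. By control ASO level TXNIP was the 13th, ARRDC3 the 36th and ARRDC4 the 75th most abundant of the tested genes in CPM, not corrected for length.

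**Figure D4:**
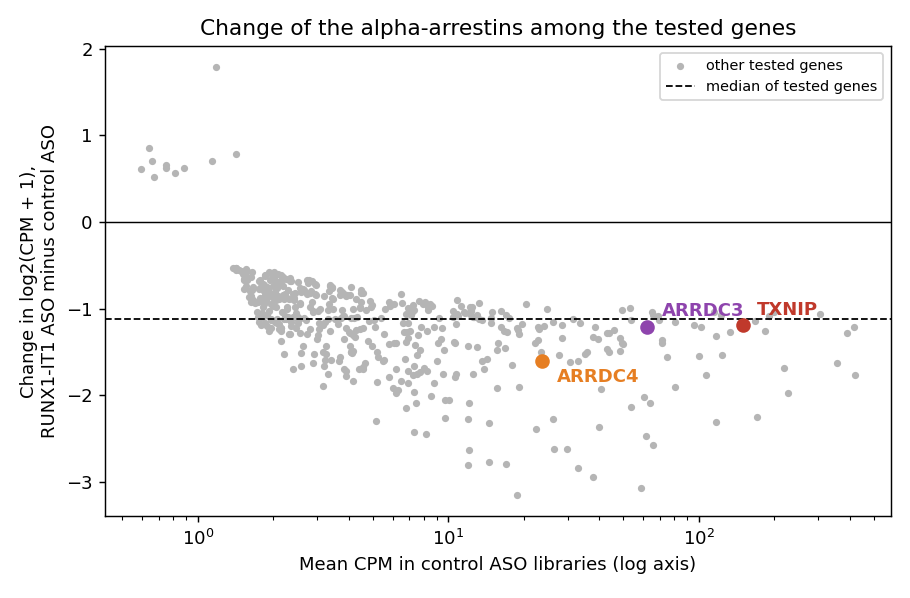
Change in log2(CPM + 1), RUNX1-IT1 ASO minus control ASO, against the mean CPM in control ASO libraries (log axis) for the 489 tested genes in grey, with TXNIP, ARRDC3 and ARRDC4 coloured. TXNIP and ARRDC3 lie close to the dashed median of -1.11 and ARRDC4 lies at -1.60, although after rescaling each library to the same listed total TXNIP and ARRDC3 lie above 0. As folds between group means, TXNIP (2.31) and ARRDC3 (2.35) fell less than the median of 2.97. The listed total was itself lower under the RUNX1-IT1 ASO, and after rescaling only TXNIP of the 3 was called.

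Rescaling each library to the same listed total shifted the median change of the tested genes by 1.05, to -0.06, since nearly all listed genes were lower. After it, TXNIP stood at 0.29 ± 0.06 (SE, limma, adjusted p = 0.00339), ARRDC3 at 0.25 ± 0.10 (limma, adjusted p = 0.0802) and ARRDC4 at -0.22 ± 0.10 (limma, adjusted p = 0.113). Of the tested genes 8.79% were then called higher and 24.1% lower. For genes that fell in CPM, a positive value here means that they fell less than the listed sum did. TXNIP made up 1.73, 1.74 and 1.70% of the listed CPM in replicates 1, 2 and 3 of the RUNX1-IT1 ASO group, against 1.38, 1.51 and 1.33% in control ASO replicates 1, 2 and 3. ARRDC4 made up 0.190, 0.212 and 0.170% in RUNX1-IT1 ASO replicates 1, 2 and 3, against 0.221, 0.229 and 0.218% in control ASO replicates 1, 2 and 3. The RUNX1-IT1 ASO libraries lay above the control ASO libraries for TXNIP and below them for ARRDC4. How many of the tested genes separate in this way by share was not counted, so the separation is no result about these genes. The share of ARRDC3 ran from 0.626 to 0.825% in RUNX1-IT1 ASO libraries and from 0.549 to 0.632% in control ASO libraries, which overlap.

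**Figure D5:**
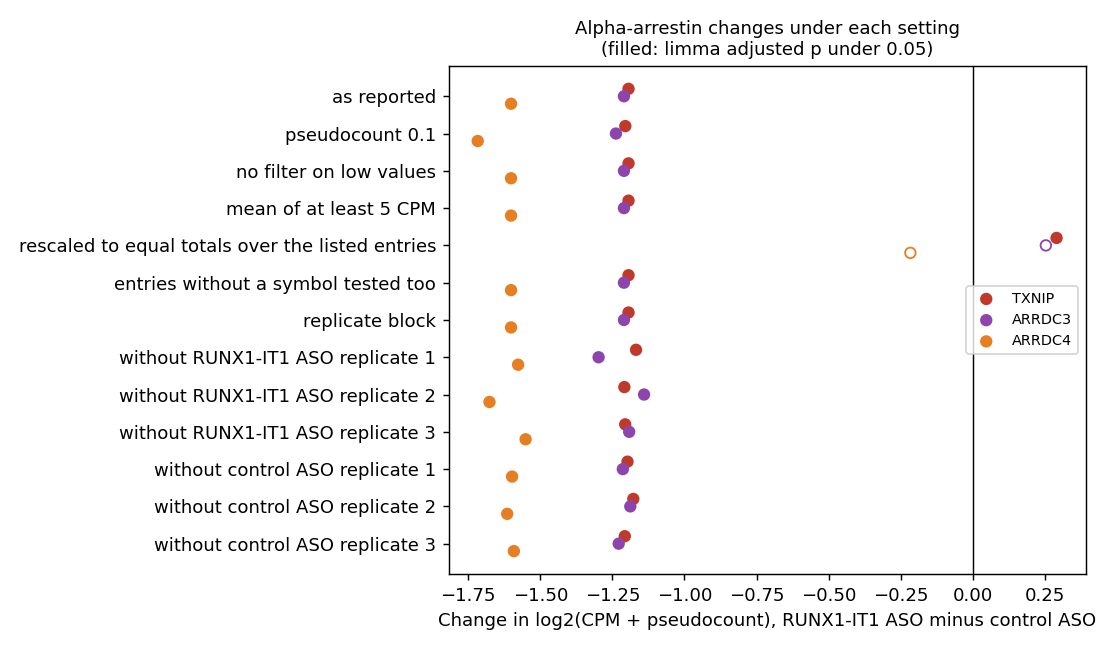
Change of TXNIP, ARRDC3 and ARRDC4, RUNX1-IT1 ASO minus control ASO, under each way of processing, with filled points where the limma adjusted p was under 0.05. Points stay between -1.72 and -1.14 except after rescaling to the same listed total, where TXNIP stood at 0.29, ARRDC3 at 0.25 and ARRDC4 at -0.22.

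Other genes tied to the alpha-arrestins were looked up by list. The human family has 6 genes on the list used, and ARRDC1, ARRDC2 and ARRDC5 are not analysed here. No gene was listed of 9 NEDD4 family ligases, 16 thioredoxin system genes, 3 Mondo and MLX factors, 4 visual and beta-arrestins, 7 inflammasome genes or 6 reported cargoes, so none of these can be set beside the members.

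Of 15 glucose-responsive Mondo targets 4 were listed, and the 3 tested (TXNIP, ARRDC4 and KLF10) were all called lower, as were 97.5% of all tested genes, though after rescaling 1 was called lower (KLF10) and 1 higher (TXNIP), beside 24.1% and 8.79% of all tested genes. Their median change was -1.60, beside -1.11 over all tested genes and -1.32 over those with at least 10 CPM in control ASO libraries, a level that all 3 reach. KLF10, a zinc finger repressor that responds to glucose and to TGF-beta, stood at 67.5 ± 1.28 CPM under the RUNX1-IT1 ASO and 220 ± 7.58 CPM under the control ASO (SD, n = 3 each), 3.26-fold lower, near the 3.31-fold of ARRDC4. RGS16, a regulator of G protein signalling, had 0.107, 0.108 and 0.293 CPM in replicates 1, 2 and 3 of the RUNX1-IT1 ASO group, against 1.15, 0.695 and 1.23 CPM in control ASO replicates 1, 2 and 3, too low for the test. Of 24 genes on the list of glucose uptake and glycolysis, the 1 in these data was PDK4, a kinase that shuts pyruvate dehydrogenase. It was 3.26-fold lower (limma, adjusted p = 1.29e-05) and not called after rescaling. PDK4 averaged 0.750 CPM under the RUNX1-IT1 ASO and 2.44 CPM under the control ASO. It therefore passed the 1 CPM filter only through the control ASO group. The list is not complete. Off it, the enolase ENO3 changed by -1.54 and was called lower. The glucose transporter SLC2A10 changed by 0.70 and was called higher, as were 2.04% of tested genes. It had 0.659 CPM in control ASO libraries, under the filter.

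Of 16 glucocorticoid receptor targets, a group that includes TXNIP, 5 were listed and all 5 were called lower, as were 97.5% of all tested genes, though after rescaling TXNIP was called higher and the other four were not called. Their median change was -1.19, beside -1.11 over all tested genes and -1.32 over those with at least 10 CPM in control ASO libraries, a level that all of the 5 but PDK4 reach. Beside TXNIP and PDK4 these were NFKBIA, an NF-kB inhibitor (2.69-fold lower), ANGPTL4, an inhibitor of lipoprotein lipase (2.46-fold lower), and ZFP36, an mRNA decay factor (2.24-fold lower). PAX8 and ESR1, the ovarian markers listed, were 2.40-fold and 2.93-fold lower and not called after rescaling. ESR1 averaged 0.828 CPM under the RUNX1-IT1 ASO and 2.42 CPM under the control ASO. Like PDK4, it passed the 1 CPM filter only through the control ASO group. ITGAM, the 1 listed of the 9 immune markers searched, ran from 0.059 to 0.214 CPM in RUNX1-IT1 ASO libraries. In control ASO libraries it ran from 1.62 to 1.84 CPM, too low for the test. The marker lists are short and leave out genes that were tested. Among these, the macrophage genes CD163 (-2.05) and MRC1 (-1.13) were called lower, as were nearly all tested genes. CD93, a gene of endothelial and myeloid cells, was called higher (0.62). The part of other cells in the alpha-arrestin values was not tested.

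The genes most like each member were taken as those with the smallest root-mean-square difference in log2(CPM + 1), after subtracting the control ASO mean, over the 6 libraries, among 164 other genes averaging 5 CPM or more. For TXNIP these were PPP1R15A, a phosphatase subunit of the stress response (0.0639), THBS1, thrombospondin (0.0707), and VIM-AS1, a non-coding RNA opposite VIM (0.0713). For ARRDC3 they were NEXN-AS1, a non-coding RNA opposite NEXN (0.0589), MMP25, a membrane-anchored metalloproteinase (0.0664), and CPEB2, a regulator of translation (0.0682). For ARRDC4 they were RASAL2-AS1, a non-coding RNA (0.0552), ENO3, the muscle enolase (0.0933), and SNORD3D, a small nucleolar RNA (0.104). ARRDC3 ranked 32 in likeness to TXNIP and ARRDC4 ranked 116, so neither was among the 3 closest to it. ARRDC3 had TXNIP at rank 15 and ARRDC4 at rank 117. ARRDC4 had TXNIP at rank 64 and ARRDC3 at rank 75. Reads of the antisense genes cannot be told apart from those of their partners unless strand was used.

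Within 1 megabase of TXNIP 58 other genes are annotated in GENCODE, and none is among the listed symbols. The same holds for the 29 annotated around ARRDC4. Of 23 annotated around ARRDC3, LUCAT1, a long non-coding RNA, is listed, and its annotated span ends 54.2 kilobases from ARRDC3. LUCAT1 stood at 0.535 ± 0.0526 CPM under the RUNX1-IT1 ASO and 2.00 ± 0.131 CPM under the control ASO (SD, n = 3 each). It was 3.74-fold lower (limma, adjusted p = 4.22e-06), as nearly all tested genes were lower. LUCAT1 passed the filter of a mean of 1 CPM only through the control ASO group, so its adjusted p is no independent evidence of a change.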

How the data were processed

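The values deposited by the authors are CPM, 1 table per library, a unit read from the values themselves. GRCh38, FastQC 0.11.9 and fastp 0.22.0 are named in the submitters' processing notes. Aligner, counter, annotation, strand and the choice of entries are not given in the sources used here. Total RNA went into mRNA-focused libraries, per the labels' protocols.

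With limma 3.58.1 in R 4.3.3, log2(CPM + 1) was fitted with a mean-variance trend and group as the only term over the 489 named genes averaging 1 CPM or more, two-sided. An adjusted p (Benjamini-Hochberg over all 489) under 0.05 was a call. The 342 entries without a symbol stayed out. Tested on simulated data of this comparison (610 genes), the fit called 61 of 64 genes lowered 2-fold and 64 of 64 lowered 3-fold. It also called 7 of 482 genes that were left unchanged. Most genes in that data were left unchanged, whereas nearly all listed entries were lower under the RUNX1-IT1 ASO. How the fit performs on entries chosen for a difference was not tested. Within-library ratios had exact permutation tests. Low CPM values are evenly spaced, as whole reads would give (tolerance 0.1 step, checked up to 320 steps), and 3 reads correspond to 0.141 to 0.176 CPM. The smallest value lay at 1 step in RUNX1-IT1 ASO libraries and at 2 to 5 steps in control ASO libraries, so implied reads are less certain there. Replicates did not agree within sampling noise (chi-square per degree of freedom 2.17 to 3.41).

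The members and gene lists were chosen with earlier results of these data known. Named genes were the members, up to 4 listed genes per list by adjusted p, and the 3 genes most like each member. LUCAT1 is named for its position beside ARRDC3. SLC2A10, CD163, MRC1 and CD93 are named as genes that the lists leave out. Coordinates are GENCODE release 29, and start windows are from RefSeq. Alternatives covered the pseudocount, filter, scaling, entries, replicate block and each library left out.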

Additional observations from a re-analysis of the deposited data

How the results depend on the processing

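TXNIP, ARRDC3 and ARRDC4 kept their direction and call with a pseudocount of 0.1, with no filter, with a mean of at least 5 CPM, with entries without a symbol tested too, with the replicate block and without any 1 library. Leaving out 1 library gave -1.21 to -1.17 for TXNIP, -1.30 to -1.14 for ARRDC3 and -1.68 to -1.55 for ARRDC4. Rescaling each library to the same listed total gave 0.29 for TXNIP (limma, adjusted p = 0.00339), 0.25 for ARRDC3 (0.0802) and -0.22 for ARRDC4 (0.113), and by construction it centres genes that nearly all fell. Calls over the tested genes were 477 lower and 10 higher, and 118 lower and 43 higher after rescaling, 750 and 19 with no filter, 165 and 0 in limma with a mean of at least 5 CPM (0 higher at an unadjusted p under 0.05 too), and 20 higher with entries without a symbol, where more or fewer genes were tested. Without 1 library, the ratio differences ran from -0.59 to -0.46 for ARRDC4 over TXNIP, from -0.65 to -0.37 for ARRDC4 over ARRDC3 and from -0.15 to 0.0527 for ARRDC3 over TXNIP, whose sign turned without RUNX1-IT1 ASO replicate 2, and the cause was not tested. Same-numbered libraries did not deviate together (correlations of -0.24, -0.10 and -0.02), so the numbers were not taken as pairs, and the replicate block gave 478 lower and 10 higher. Counts of called genes on the lists moved by over 1.5 times in 10 cases, all after rescaling or with a mean of at least 5 CPM, and not in the other 110. The planned test on read counts was not run, since whole reads could not be taken as recovered in the control ASO libraries. Depth limits ARRDC4 most, with 113 to 150 implied reads in RUNX1-IT1 ASO libraries.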
